A study of Sus scrofa with 12 samples.

Results

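The perilipins PLIN1 to PLIN5 and the CIDE proteins CIDEA and CIDEC coat the lipid droplets in which cells store triglyceride, and their transcripts were followed in the back muscle longissimus dorsi of 2 pig breeds. The genes were taken by name from the table of all genes. All 7 of the 7 names sought were present, among 23271 genes listed. Poly(A) RNA had been sequenced in 6 libraries from Laiwu pigs, a native breed of China with heavily marbled meat, and in 6 from Yorkshire pigs, a lean Western breed. The animals were described as equal in weight, and no treatment, age, sex or batch was given. Total counts ran from 54961358 to 67285809 per library.

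A lipid droplet is a core of neutral lipid under a single layer of phospholipid, and the coat decides which enzymes reach the core. PLIN1 covers the large droplet of fat cells and restrains lipolysis until hormones lead to its phosphorylation. CIDEC, also known as FSP27, and CIDEA sit where droplets touch and let lipid pass from the smaller to the larger one, so that droplets grow. PLIN2 and PLIN3 are made in most cell types, PLIN4 is abundant in fat cells and striated muscle, and PLIN5 is known from oxidative tissues, where it ties droplets to mitochondria. Muscle RNA therefore holds coat transcripts of muscle fibres together with those of fat cells lying between them. In such bulk RNA, fewer fat cells and less RNA per fat cell cannot be told apart.

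The tissue label was checked against muscle genes. ACTA1, the skeletal muscle actin, averaged 41624 ± 6244 FPKM for the Laiwu libraries and 43899 ± 6523 FPKM for the Yorkshire ones (SD, 6 libraries each). FPKM is the count scaled by gene length and by library total, so levels of different genes can be roughly compared on it. Such comparisons still depend on the gene models and on how reads were assigned to genes. Yorkshire 5 stood apart from the other libraries. Its median absolute deviation from its breed mean was 0.313 on the log2 scale, against 0.156 to 0.21 elsewhere, and longer genes tended to lie lower in it (Spearman's rho of deviation with length, -0.417 over genes). Laiwu 2 was close to Yorkshire libraries over the whole table. Of the 3 closest pairs of libraries, by chi-square of their counts per gene, 2 joined it to Yorkshire 4 (33.34) and Yorkshire 1 (39.3), and the closest was Yorkshire 1 with Yorkshire 4 (33.13). Without Laiwu 2 the log2 fold changes given further on were 1.81 for PLIN1, 1.40 for CIDEC, 1.01 for CIDEA, 0.40 for PLIN4, 0.35 for PLIN2 and -0.10 for PLIN3, each uncalled by edgeR.

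The 7 genes differed widely in level. PLIN4 led by far, at a mean of 64.9 FPKM over the 12 libraries, more than 98.2% of all listed genes. PLIN1 followed at 8.22 FPKM, PLIN2 at 7.58, CIDEC at 4.93, CIDEA at 4.03, PLIN3 at 1.26 and PLIN5 at 0.450 FPKM. PLIN4 exceeded PLIN1 in 12 of 12 libraries, with a median ratio of 9.73. PLIN1 and PLIN2 did not keep their order, since PLIN1 was the higher in 5 of 6 Laiwu libraries and in 1 of 6 Yorkshire libraries. CIDEC was above CIDEA in 8 of 12 libraries, so these neighbours in level did not keep their order either. CIDEA stayed above PLIN3, and PLIN3 above PLIN5, in 12 of 12 libraries each.

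PLIN5 did not stand out as a muscle gene by its level. PLIN1, the fat cell gene, was higher than PLIN5 in 12 of 12 libraries, with a median ratio of 12.6. PLIN4 exceeded PLIN5 by a median factor of 125. These neighbours lie on the same strand of chromosome 2, 4318 bases apart. PLIN5 spans 74300619 to 74314309 and PLIN4 spans 74318628 to 74331909 on the Sscrofa11.1 build. The part of gene models and of read assignment between PLIN4 and PLIN5 in the low PLIN5 level was not tested. PLIN5's mean fell short of the 0.5 FPKM asked for testing, so 6 of the 7 genes entered the test between breeds.

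**Figure D1:**
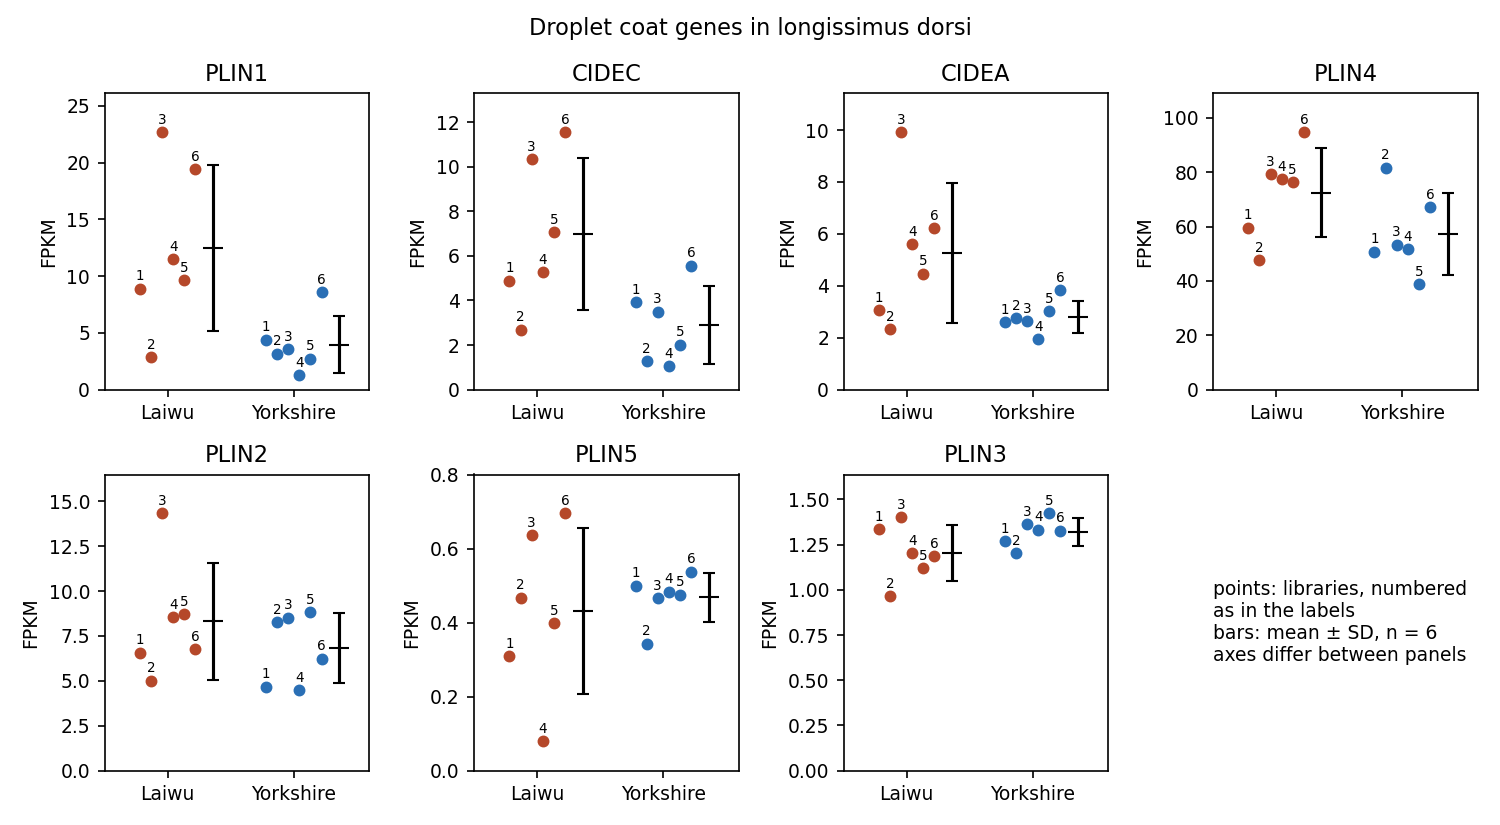
FPKM of each coat gene in each library, with Laiwu in red, Yorkshire in blue, libraries numbered as in the labels, and bars for the mean ± SD of 6 libraries. PLIN1, CIDEC and CIDEA reach their highest values in Laiwu 3 or Laiwu 6, the breeds overlap for every gene, and PLIN5 lies below 0.70 FPKM in all libraries.

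No coat gene passed the breed comparison. edgeR's quasi-likelihood test on counts with Benjamini-Hochberg adjustment called 0 of the 6 tested members at an adjusted p under 0.05, against 0 of 11205 genes (0%). Before adjustment, 3 of the 6, PLIN1, CIDEC and CIDEA, had a p under 0.05, all with higher values in Laiwu. Over all tested genes 4.44% had such a p, and 2.14% had it with a higher value in Laiwu. Fitted fold changes were above 0 for 5 of the 6, as for 49.7% of all tested genes. The FPKM ranges of the breeds overlapped for 7 of the 7 genes, so 0 members were separated, against 0.178% of tested genes. DESeq2 called 0 of the 6, where it called 0.00892% of all genes, and gave the same 3 a p under 0.05, where 5.08% of all genes had one. limma on log2(FPKM + 1) did likewise, where 3.54% of all genes had one. The droplet genes were picked with results on this contrast known, so these counts describe the set and are no test of it.

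PLIN1 (ENSSSCG00000001844; chromosome 7, 55236348 to 55250797) showed the widest gap. Its values in Laiwu 1 to 6 were 8.90, 2.83, 22.7, 11.5, 9.67 and 19.4 FPKM. In Yorkshire 1 to 6 they were 4.39, 3.18, 3.55, 1.26, 2.74 and 8.60 FPKM. Laiwu 2 lay among the Yorkshire libraries, and the other 5 Laiwu libraries lay above the highest Yorkshire library, number 6. The fitted log2 fold change was 1.61 ± 0.50 (SE), or 3.04-fold, with an edgeR p of 0.00757 and an adjusted p of 0.912. For PLIN1 an exact two-sided permutation test of the breed labels gave p = 0.0303, which adjustment over 23271 genes took to 1.0. By this test 3 of the 7 members had an unadjusted p under 0.05, where 3.61% of all genes had one. The smallest p this design allows is 0.00216.

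CIDEC (ENSSSCG00000011557; chromosome 13, 66141839 to 66149703) followed the same order of libraries in part. It stood at 4.88, 2.69, 10.4, 5.28, 7.07 and 11.6 FPKM in Laiwu 1 to 6. The Yorkshire libraries held 3.92, 1.28, 3.49, 1.05, 2.01 and 5.56 FPKM. Only Laiwu 3, 5 and 6 lay above the highest Yorkshire value, and Yorkshire 2, 4 and 5 lay below the lowest Laiwu value. CIDEC's log2 fold change was 1.23 ± 0.43 (SE), with an edgeR p of 0.0131, an adjusted p of 0.912 and an exact permutation p of 0.0238.

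CIDEA (ENSSSCG00000060225; chromosome 6, 97253074 to 97267405), known in mice as a gene of brown fat, was measured in every library of this muscle. Laiwu 1 to 6 held 3.07, 2.32, 9.92, 5.60, 4.46 and 6.22 FPKM. The Yorkshire values were closer together, at 2.61, 2.76, 2.64, 1.95, 3.02 and 3.82 FPKM. Laiwu 3 to 6 lay above all Yorkshire libraries, while Laiwu 1 and 2 lay within their range. The log2 fold change was 0.86 ± 0.30 (SE), or 0.60 without Laiwu 3, with an edgeR p of 0.0116, an adjusted p of 0.912 and an exact permutation p of 0.0455.

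PLIN4 (ENSSSCG00000013512; chromosome 2) differed less. Its level was 59.6, 47.7, 79.4, 77.5, 76.3 and 94.8 FPKM in Laiwu 1 to 6. Yorkshire 1 to 6 stood at 50.8, 81.7, 53.4, 51.8, 38.9 and 67.1 FPKM. Yorkshire 2 ranked second among all 12 libraries, and only Laiwu 6 was higher. The log2 fold change was 0.30 ± 0.20 (SE), with an adjusted p of 0.912 by edgeR. It was 0.46 without Yorkshire 2, where the unadjusted p was 0.0203 and the adjusted p 0.781. PLIN4 has the longest model of the set, 7.65 kb, and was lowest in Yorkshire 5, without which its log2 fold change was 0.22. The part of the library's relation with gene length in the PLIN4 value was not tested.

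PLIN2 (ENSSSCG00000035863; chromosome 1, 203683862 to 203697099), which coats droplets in most cells and is broken down when no lipid is bound, did not separate the breeds. Laiwu libraries held 6.57, 5.01, 14.3, 8.55, 8.72 and 6.76 FPKM. Yorkshire libraries held 4.68, 8.25, 8.51, 4.47, 8.84 and 6.24 FPKM. Laiwu 3 was alone above the Yorkshire range. PLIN2's log2 fold change was 0.25 ± 0.25 (SE) with all libraries and 0.04 without Laiwu 3, each with an edgeR adjusted p above 0.9.

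PLIN3 (ENSSSCG00000038954; chromosome 2, 73970200 to 73995311), a coat protein that moves from the cytosol to newly formed droplets, was the steadiest. It ranged from 0.966 to 1.40 FPKM in Laiwu and from 1.20 to 1.42 FPKM in Yorkshire. Its log2 fold change was -0.16 ± 0.14 (SE), with an adjusted p of 0.914 by edgeR. PLIN5 (ENSSSCG00000013513) ran from 0.0799 FPKM in Laiwu 4 to 0.697 FPKM in Laiwu 6, and from 0.344 to 0.539 FPKM in Yorkshire. The value in Laiwu 4 rested on 19 counts, against 70 to 148 in the other 11 libraries. The mean log2 CPM of PLIN5 was lower in Laiwu by a difference of -0.375 with all libraries, and this became 0.0275 without Laiwu 4. An exact permutation test of PLIN5 gave p = 0.552.

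**Figure D2:**
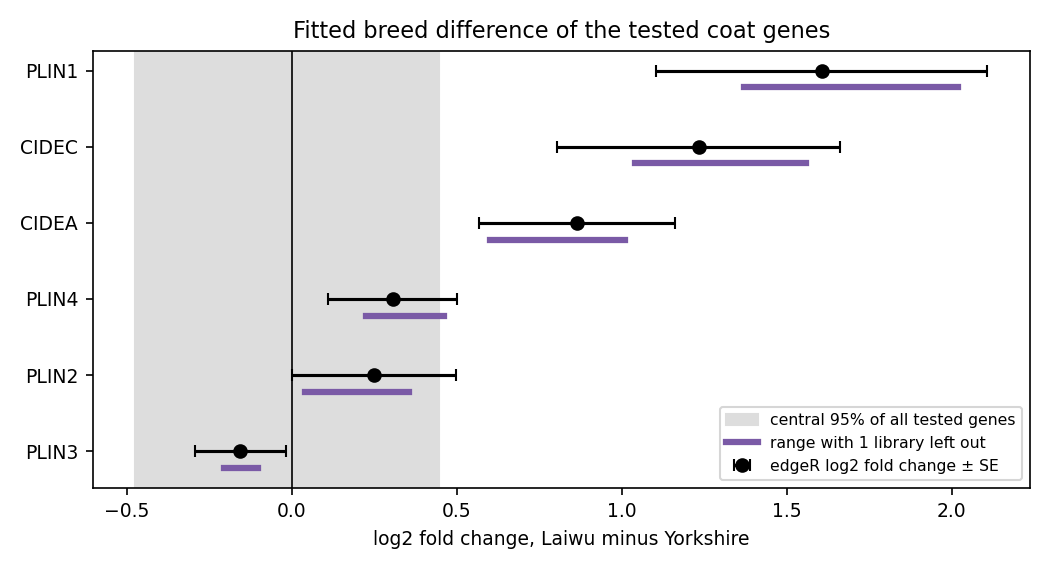
edgeR log2 fold change ± SE of the 6 tested coat genes, Laiwu minus Yorkshire, with the range obtained when 1 library was left out and, in grey, the central 95% of all tested genes (-0.48 to 0.45). The points of PLIN1, CIDEC and CIDEA lie to the right of the grey band, those of PLIN4, PLIN2 and PLIN3 within it, and no adjusted p was under 0.05. The SE bars of PLIN4 and PLIN2 extend past the band, as does the left-out range of PLIN4, up to 0.462.

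The coat genes also differed in how much they varied within a breed. The within-breed SD of log2 CPM was 0.985 for PLIN1, 0.841 for CIDEC, 0.761 for PLIN5 and 0.565 for CIDEA, where the median tested gene had 0.285. PLIN1 was thus more variable than 97.2% of tested genes, CIDEC more than 95.6% and PLIN5, itself not tested, more than 94.3%. The spread of PLIN5 lay in Laiwu, with an SD of 1.06 there, against 1.04 for PLIN1, and of 0.209 in Yorkshire. Within Laiwu the PLIN5 spread rested largely on Laiwu 4, at a log2 CPM of -1.605 from 19 counts. The next lowest Laiwu library, Laiwu 1, had 0.2685 from 75 counts. The Laiwu SD of PLIN5 is thus no measure of the breed as a whole. PLIN2 had an SD of 0.481, PLIN4 one of 0.371 and PLIN3 one of 0.158. Only 10.4% of tested genes had a smaller SD than PLIN3. From the lowest to the highest library, PLIN1 spanned 8.0-fold within Laiwu and 6.81-fold within Yorkshire, PLIN5 8.71-fold and 1.57-fold, and PLIN3 1.45-fold and 1.18-fold. The 8.71-fold span of PLIN5 started from the low value in Laiwu 4.

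The fat cell genes PLIN1 and CIDEC were set against PLIN2, PLIN4 and PLIN5, which muscle fibres make, though not they alone. The difference between the mean log2 CPM of the former and that of the latter was -0.98, -2.19, -0.62, -0.38, -1.03 and -0.42 in Laiwu 1 to 6. Yorkshire 1 to 6 had -1.63, -2.99, -2.14, -3.43, -2.60 and -1.20. Laiwu 2 fell within the Yorkshire range, and the other 5 Laiwu libraries lay above it. The value of Laiwu 4, the highest, took in PLIN5 at only 19 counts. Means were -0.937 ± 0.673 in Laiwu and -2.33 ± 0.838 in Yorkshire (SD, n = 6 each), a gap of 1.40 that ran from 1.18 to 1.65 with 1 library left out. It was 1.18 when PLIN5 was dropped, an alternative chosen after the data were seen, and then only 2 Laiwu libraries lay above the Yorkshire range. No p is given for this score, whose members were chosen with results known. PLIN4 is also abundant in fat cells, so the score does not fully part fat cells from muscle fibres. CPM is not scaled by gene length, so the sign of the score is no comparison of levels. From log2(FPKM + 0.1) the means were 0.333 ± 0.633 in Laiwu and -0.996 ± 0.818 in Yorkshire, a gap of 1.33.

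Expressed as shares of the summed FPKM of the 7 genes, PLIN4 held 68.9% ± 6.52 in Laiwu and 75.5% ± 6.18 in Yorkshire (SD, n = 6 each). PLIN1 and CIDEC together held 17.0% ± 5.34 and 8.91% ± 4.41. Their joint share was lowest in Yorkshire 4, at 3.71%, and highest in Laiwu 3, at 23.8%. The summed level itself was 107.2 ± 30.5 FPKM in Laiwu and 75.5 ± 16.8 FPKM in Yorkshire, with ranges of 62.0 to 140.6 and 57.4 to 98.7 FPKM that overlapped.

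**Figure D3:**
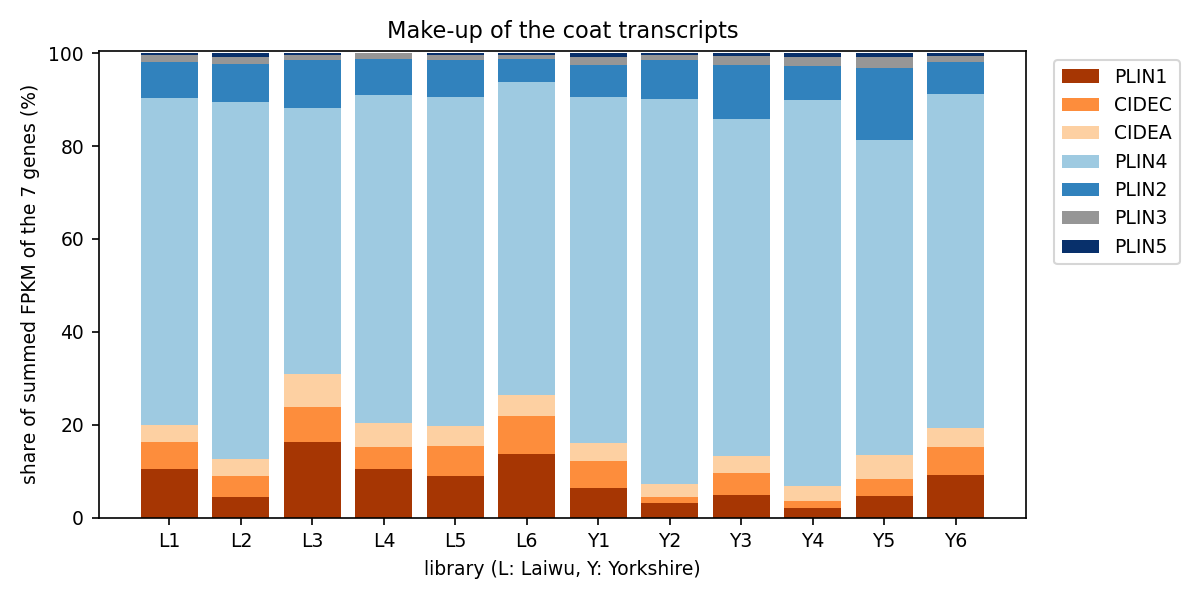
Share of each coat gene in the summed FPKM of the 7 genes, per library, with Laiwu (L) on the left and Yorkshire (Y) on the right. PLIN4 makes up 57.2% to 83.1% of every bar, and the red and orange blocks of PLIN1, CIDEC and CIDEA add up to the least in Yorkshire 4 (6.84%) and the most in Laiwu 3 (31.0%).

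Markers of fat cells were read beside PLIN1, CIDEC and CIDEA. Of 13 such markers outside the coat, 11 were listed, 8 were tested, 6 of these had a fitted fold change above 0 and 0 passed the edgeR test. Their median log2 fold change was 0.82, where that of all tested genes was 0.00. Before adjustment 5 of the 8 had an edgeR p under 0.05, all higher in Laiwu, where 2.14% of all tested genes had one in that direction. The summed level of the 11 ran from 54.9 to 173.0 FPKM in Laiwu and from 48.95 to 84.8 FPKM in Yorkshire. ADRB3 was at 0 in all Laiwu libraries and reached at most 0.0164 FPKM in Yorkshire. ADIPOQ, the gene of the fat cell hormone adiponectin, stood at 22.2, 9.54, 77.2, 29.7, 24.5 and 59.5 FPKM in Laiwu 1 to 6. The Yorkshire values were 17.8, 9.04, 9.97, 3.89, 5.66 and 22.6 FPKM.

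PLIN1 had a like proportion to ADIPOQ in both breeds. PLIN1 FPKM amounted to 35.0% ± 5.01 of ADIPOQ FPKM in Laiwu and 35.7% ± 7.74 in Yorkshire (SD, n = 6 each). The proportion of CIDEC to ADIPOQ was 21.6% ± 6.05 and 26.4% ± 8.13. For CIDEA the means lay farther apart, at 16.4% ± 5.03 in Laiwu and 32.0% ± 16.4 in Yorkshire, and PLIN2 stood at 29.4% ± 14.3 and 83.6% ± 50.5. Within Yorkshire they ran from 14.6% to 53.3% for CIDEA and from 26.2% to 156.0% for PLIN2. ADIPOQ, the divisor, was lowest in Yorkshire 4 and Yorkshire 5, at 3.89 and 5.66 FPKM, and Yorkshire 5 is the library that stood apart. None of these proportions was tested between breeds. CFD, another fat cell marker and the most abundant of that list, was level between the breeds at 28.9 ± 2.80 and 30.3 ± 4.80 FPKM.

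**Figure D4:**
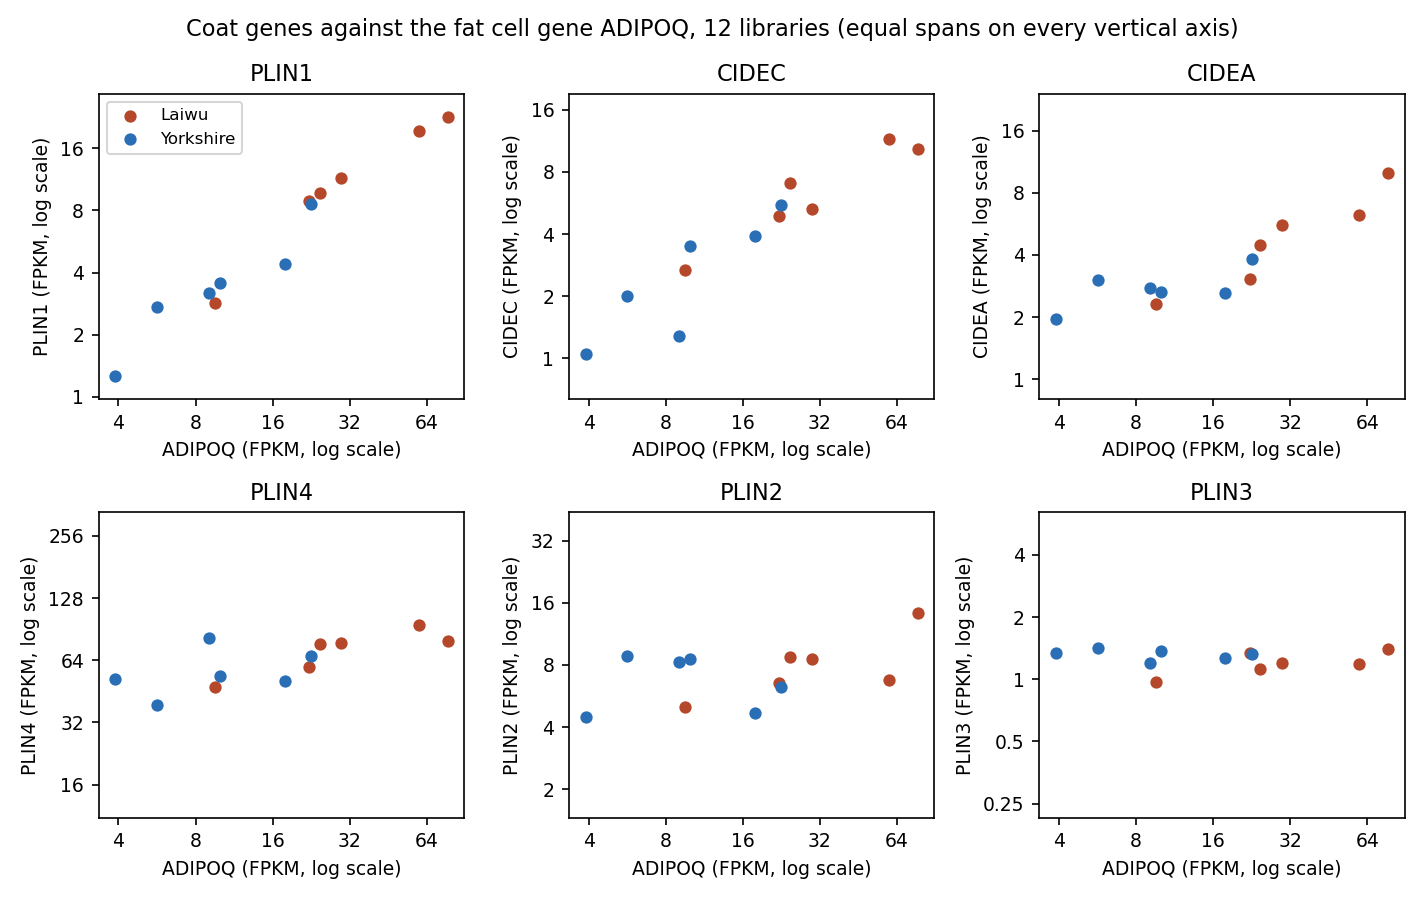
FPKM of 6 coat genes against FPKM of ADIPOQ in the 12 libraries, both on log scales, with Laiwu in red and Yorkshire in blue. PLIN1 and CIDEC climb with ADIPOQ across both breeds, CIDEA climbs less steeply, and PLIN3 stays between 0.966 and 1.42 FPKM over the whole range of ADIPOQ.

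How the coat genes varied together was measured across the 12 libraries after the breed means of log2 CPM were removed. Each p is a two-sided permutation within breeds, with 100000 resamples and Benjamini-Hochberg adjustment over 33 relations. PLIN1 and CIDEC had a Pearson r of 0.899 (p = 0.00017, adjusted 0.0028) and a Spearman's rho of 0.857 (p = 0.00219, adjusted 0.0244). The r was 0.949 within Laiwu, 0.879 within Yorkshire and 0.848 without the 2 libraries farthest from the PLIN1 median, Laiwu 3 and Yorkshire 4. PLIN1 and CIDEA had an r of 0.871 (p = 0.00048, adjusted 0.00396) and a rho of 0.80 (p = 0.00664, adjusted 0.0443), and 0.853 without the same libraries.

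ADIPOQ ranked the libraries of each breed exactly as PLIN1 did. The r of this pair was 0.964 and the rho 1.0, each at p = 1e-05, the smallest that the resamples can give, and at 0.00033 after adjustment. Without the 2 outlying libraries the r was 0.946. CIDEC and ADIPOQ had an r of 0.895 (p = 0.00042, adjusted 0.00396) and a rho of 0.857 (p = 0.00222, adjusted 0.0244), with 0.952 without Yorkshire 2 and Yorkshire 4. CIDEA and ADIPOQ had an r of 0.825 (p = 0.00212, adjusted 0.0140) and a rho of 0.80 (p = 0.00671, adjusted 0.0443), with 0.722 without Laiwu 3 and Laiwu 6.

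CIDEA and CIDEC passed by r alone, at 0.695 (p = 0.00867, adjusted 0.0477), since the rho of 0.714 had an adjusted p of 0.112 (p = 0.0203). Without Laiwu 3 and Laiwu 6 the r was 0.622. PLIN4 with PLIN1 reached an r of 0.629 (p = 0.0394, adjusted 0.130) and the same rho (p = 0.0478, adjusted 0.197), 0.896 within Laiwu and 0.406 within Yorkshire, and did not pass. Its r with CIDEC was 0.90 within Laiwu and -0.0103 within Yorkshire, 0.344 over both (p = 0.311, adjusted 0.427), with a rho of 0.371 (p = 0.274, adjusted 0.566). PLIN4 with ADIPOQ had an r of 0.61 (p = 0.0446, adjusted 0.134) and a rho of 0.629 (p = 0.0462, adjusted 0.197), and did not pass. The r of that pair was 0.844 within Laiwu, 0.42 within Yorkshire and 0.369 without Laiwu 2 and Yorkshire 5. Whether the breeds differ in these relations was not tested.

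PLIN2 passed with none of its partners after adjustment. It came nearest among the coat genes with CIDEA, at an r of 0.721 (p = 0.0117, adjusted 0.0528) and a rho of 0.60 (p = 0.0621, adjusted 0.228), and the r was 0.454 without Laiwu 3 and Yorkshire 4. With ADIPOQ its r was 0.384 (p = 0.242, adjusted 0.381) and its rho 0.314 (p = 0.362, adjusted 0.631), and the r was -0.142 without the same libraries. The highest r of PLIN2 in this family was with PDK4, a mitochondrial kinase that rises in fasting and holds back the burning of glucose. That pair had an r of 0.747 (p = 0.0128, adjusted 0.0528) and a rho of 0.571 (p = 0.0782, adjusted 0.258), and 0.641 without the 2 outlying libraries, so it missed the threshold after adjustment. None of the 6 relations with MYH7, the slow myosin heavy chain, passed, and their r ran from -0.521 for PLIN3 to 0.184 for CIDEC.

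**Figure D5:**
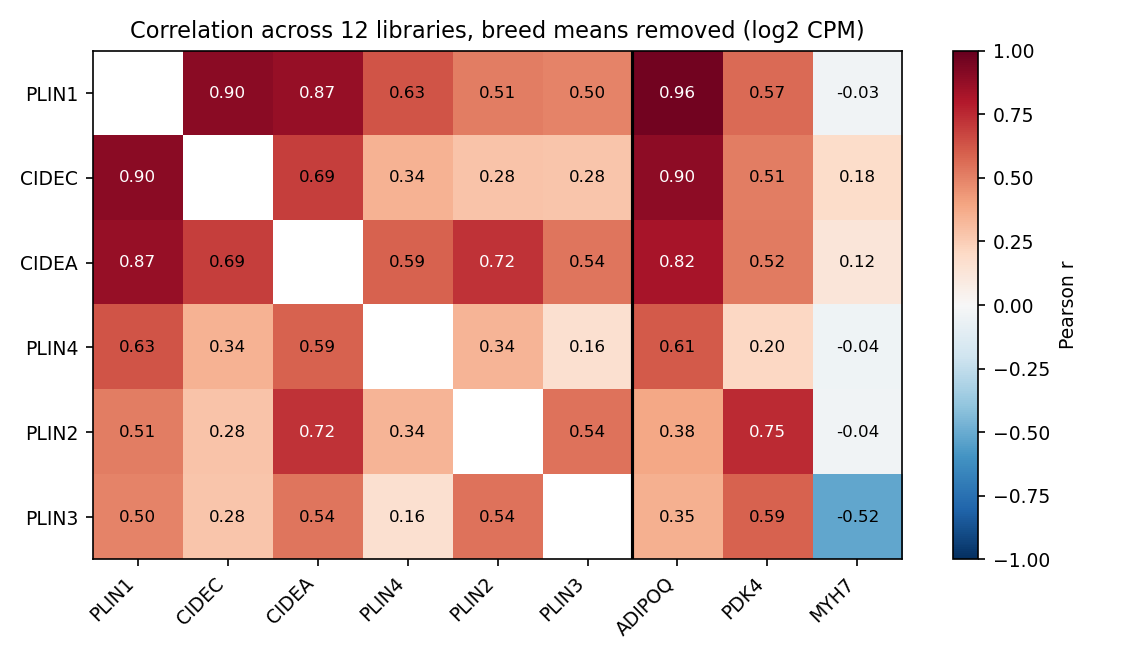
Pearson r between coat genes (rows) and, in columns, the coat genes and 3 partners (ADIPOQ of fat cells, PDK4 of the fasting response, MYH7 of slow fibres), over 12 libraries after removal of breed means. The block of PLIN1, CIDEC and CIDEA with ADIPOQ holds the highest values, up to 0.964, and the MYH7 column holds none above 0.184.

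The genes most like each member were taken as the 5 of highest r among 9680 others with a mean of at least 1 FPKM, as a description over the same 12 libraries. For PLIN1 they were ADIPOQ (0.964), ALDOC (0.962), RETSAT (0.924), PPP1R1B (0.916) and TRARG1 (0.915), the last a regulator of glucose transport in fat cells. CIDEC was nearest to TRARG1 (0.968), ALDOC (0.956), the fatty acid synthase FASN (0.908), PLIN1 (0.899) and ADIPOQ (0.895). CIDEA was nearest to PCOLCE2 (0.944), CEBPA (0.944), PPARG (0.930), PTGR1 (0.923) and PPP1R1B (0.910). CEBPA and PPARG encode the transcription factors of fat cell differentiation.

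PLIN2 was nearest to ZFAND5 (0.963), MLYCD (0.930), SLC25A20 (0.916), RAB9A (0.912) and ACSF2 (0.909). MLYCD removes malonyl-CoA, the brake on fatty acid entry into mitochondria, and SLC25A20 is the carrier that brings acylcarnitines in. PLIN4 was nearest to TRIM4 (0.960), ANKLE2 (0.898), RAB29 (0.894), a gene without a symbol (ENSSSCG00000042430, 0.893) and APP (0.876), with PLIN1 at rank 321. PLIN3 was nearest to a gene without a symbol (ENSSSCG00000015011, 0.911), MGST3 (0.907), CDK5RAP3 (0.903), ATP5MG (0.868) and KMT5C (0.863).

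The partners of the coat were examined as lists. Of the lipolysis genes that act at the droplet, 7 were tested, 5 above and 2 below 0, and 0 passed the edgeR test in either direction. Their median log2 fold change was 0.01. PNPLA2, the triglyceride lipase that PLIN1 and PLIN5 hold in check, averaged 34.5 ± 10.6 FPKM over Laiwu and 33.8 ± 10.1 FPKM over Yorkshire libraries (SD, 6 each). MGLL, which splits monoglycerides, was at 16.9 ± 3.22 and 17.0 ± 2.87 FPKM. Before adjustment 1 gene of the list, LIPE, had a p under 0.05, where 4.44% of all tested genes had one. LIPE, the hormone-sensitive lipase recruited through PLIN1, was at 5.98 ± 3.55 and 2.96 ± 1.26 FPKM. Its log2 fold change was 0.98 ± 0.42 (SE), with an edgeR p of 0.0386 and an adjusted p of 0.912. LIPE was also on the list of fat cell markers.

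Among genes of droplet formation and triglyceride synthesis 12 were tested, 9 above and 3 below 0, with 0 past the threshold and a median of 0.03. FITM1, which helps droplets bud from the endoplasmic reticulum and is typical of muscle, was at 55.6 ± 11.8 and 59.4 ± 8.22 FPKM. ACSL1, which activates fatty acids, was at 35.6 ± 18.7 and 25.9 ± 4.20 FPKM. DGAT2, 1 of the 2 enzymes of the last step of triglyceride synthesis, had the only unadjusted p under 0.05, where 4.44% of all tested genes had one. The log2 fold change of DGAT2 was 1.26 ± 0.53 (SE), with an edgeR p of 0.034 and an adjusted p of 0.912. LIPE and DGAT2 were named after their values were seen.

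Other proteins of the droplet surface gave 5 tested genes above and 4 below 0, 0 past the threshold and a median of 0.00. SPART, named after its values were seen, had the only unadjusted p under 0.05 of that list, where 4.44% of all tested genes had one. The log2 fold change of SPART was 0.24 ± 0.11 (SE), with an edgeR p of 0.0402 and an adjusted p of 0.912. Regulators of fat storage and oxidation gave 5 above and 4 below, 0 past the threshold and a median of 0.07. RXRA, the partner receptor of the PPAR family, was at 42.2 ± 4.79 and 43.0 ± 3.63 FPKM. ESRRA, a receptor that drives genes of mitochondria, was at 20.1 ± 3.05 and 21.8 ± 1.71 FPKM. PPARG, on this list and on that of fat cell markers, had a log2 fold change of 1.23 ± 0.35 (SE), with an edgeR p of 0.00328 and an adjusted p of 0.912. CAV1, which shapes membrane pits abundant in fat and endothelial cells, was at 40.4 ± 13.4 and 29.7 ± 8.40 FPKM. CAVIN1, its partner in those pits, was at 30.2 ± 4.63 and 30.7 ± 5.83 FPKM.

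Markers of other cell types that can hold droplets were read beside these values. Of the macrophage markers, 2 of 6 tested were above 0 and 0 passed, with summed levels of 13.5 to 42.0 FPKM in Laiwu and 13.9 to 34.8 FPKM in Yorkshire. MARCO, 1 of the 9 macrophage markers, was at 0 in all Laiwu libraries and reached at most 0.138 FPKM in Yorkshire. Endothelial markers gave 4 above and 4 below 0 of 8. The 6 of 6 tested genes that mark fibro-adipogenic progenitors, which can turn into fat cells within muscle, were above 0 with a median of 0.16 and 0 past the threshold. Slow fibre genes were above 0 in 1 of 11, with a median of -0.53 and 0 past the threshold. Fast fibre genes were above 0 in 3 of 10, with a median of -0.13. The part of these lists in the values of the coat genes was not tested.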

How the data were processed

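Per the labels' protocols and design text, poly(A) RNA of longissimus dorsi was sequenced on an Illumina instrument and reads were aligned with HISAT2 2.2.1 to Sscrofa11.1. Further tools in the submitters' processing notes were StringTie 1.3.4d, cutadapt 1.9, edgeR and DESeq2. For counting rules and annotation release, the sources used here say nothing. The deposited table holds, per the file headers, a whole-number count and an FPKM value for each gene and library. FPKM deposited by the authors followed count over library total within 0.94% (median of 8401 genes). No member overlaps another listed gene. Whether each library is a separate animal is not stated in the labels. The p-values then measure only the spread among these libraries, which may be technical. No pair of libraries agreed within sampling noise.

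Genes averaging 0.5 FPKM or more were tested (11205, with 12066 left out) with edgeR 4.0.16 (TMM, robust quasi-likelihood, no covariate), Laiwu minus Yorkshire. DESeq2 1.42.0, limma 3.58.1, R 4.3.3 and Python 3.11.15 served the rest. log2 CPM used a prior count of 2. The edgeR step and the correlation test were tested on simulated data. The members and lists were chosen with earlier results of these data known. Named genes were the members, the 5 nearest per member and the correlation partners ADIPOQ, PDK4 and MYH7. With no gene called by edgeR, the 2 of highest mean were named for the fat cell list and each list of coat partners. The other cell type lists are given mainly as counts, and MARCO and ADRB3 were named for their values of 0. The lists had 8 genes without a row under their symbol. Alternatives covered tests, pseudocounts of 1 and 0.1, scalings, filters, a replicate block and leaving out each library. Protein and promoter sequences were not used here.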

Additional observations from a re-analysis of the deposited data

Results flagged for a closer look

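Among 20 groups of 6 libraries checked for a single library far from the rest, 2 were flagged, where chance flags about 1 in 20. PLIN5 in Yorkshire 2 stood at 0.344 FPKM, and its gap to the next Yorkshire library was 0.633 of the range of that breed. In log2 CPM the lowest PLIN5 value was that of Laiwu 4, at -1.605 from 19 counts, against 0.2685 in the next lowest Laiwu library. Yorkshire 2 was at 0.4647 and Yorkshire 3 at 0.626, so which PLIN5 library stands apart depends on the scale. The fat cell minus muscle difference in Laiwu 2, taken in log2 CPM, was -2.19, with a gap of 0.642 of the Laiwu range. That difference includes PLIN5, whose mean was below the level asked for testing. When PLIN5 was dropped, the Laiwu values ran from -4.12 to -2.40, and the flag need not hold there. Laiwu 2 also held the lowest Laiwu values of PLIN1, CIDEC, CIDEA, PLIN2, PLIN3 and PLIN4. Without Laiwu 2 the log2 fold change was 1.81 for PLIN1, with an adjusted p of 0.600, and 1.40 for CIDEC, with one of 0.809 by edgeR.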

How the results depend on the processing

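All 6 tested members kept their direction and stayed uncalled under each of the 22 alternatives run for each. Leaving out each library in turn, the log2 fold change ran from 1.37 to 2.02 for PLIN1, 1.04 to 1.56 for CIDEC, 0.601 to 1.01 for CIDEA, 0.224 to 0.462 for PLIN4, 0.0406 to 0.356 for PLIN2 and -0.205 to -0.104 for PLIN3. The difference of PLIN5 ran from -0.552 to 0.0275, and the fat cell minus muscle difference from 1.18 to 1.65. The number of called genes was 0 in each such fit. It was 1 by DESeq2, CILP, with an adjusted p of 0.0121 against 0.912 by edgeR, and the cause was not tested. Without Laiwu 3 or Yorkshire 5, 284 and 293 genes had an unadjusted p under 0.05, against 498. On other scales and filters the fold change of PLIN1 ran from 1.37 to 1.65 and that of CIDEA from 0.628 to 0.907. PLIN5, tested by edgeR only with no filter or filterByExpr, had -0.154 and -0.157, with adjusted p of 0.976 and 0.996.

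With the replicate number as a block, edgeR called 0 genes, and CIDEC had a log2 fold change of 1.33 with an edgeR p of 0.00033 and an adjusted p of 0.740. Same-numbered libraries share only a number in the labels, which do not say whether they were paired. The correlation of their deviations ran from -0.272 to 0.331, which cannot decide this. The SE of CIDEC was 0.247 with the block and 0.429 without it. Counts of 4 and 8 occurred 8658 and 4917 times in the table, more often than 3 (1869) or 7 (1363), so a count need not be 1 independent fragment. What this means for the precision of the low PLIN5 counts was not tested.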

Other observations

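CIDEB, the third CIDE gene, known from liver and intestine, was listed at 0 in 8 of 12 libraries and reached at most 0.219 FPKM, or 16 counts. G0S2, an inhibitor of the lipase PNPLA2, averaged 1.14 ± 1.52 FPKM over Laiwu and 0.766 ± 0.831 FPKM over Yorkshire libraries (SD, 6 each), and edgeR gave 0.54 ± 0.93 (log2, SE) and an adjusted p of 0.949. ABHD5, the lipase activator that PLIN1 and PLIN5 bind, was at 3.52 ± 1.09 and 3.47 ± 1.49 FPKM. BSCL2, the seipin gene of droplet budding, was at 11.7 ± 0.906 and 12.3 ± 2.02 FPKM. These genes were named after their values were seen.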
